A study of Homo sapiens with 24 samples.

Results

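Among 24 bead arrays of H1 cells under neural induction, 6 arrays had a log2 signal of CLEC2A below 8.0 and are described here against the other 18. The 6 were chosen on that measured value, 1 array at each of 6 times. They were replicate 2 at 0, 24 and 72 h and replicate 4 at 12, 36 and 48 h. Because the set was chosen on a readout of these arrays, differences between the 6 and the 18 are given as a description, with no test. CLEC2A itself was left out of every count of differences between the sets.

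H1 is a long-established line of human embryonic stem cells. All arrays were labelled as H1 treated with dorsomorphin, also called compound C, a small molecule that inhibits BMP type I receptors and AMPK, for 0, 12, 24, 36, 48 or 72 h, with 4 arrays at each time. Cells had been grown on Matrigel in mTeSR to confluency and were then moved to a medium with serum replacement, and no later time had an untreated sample, so drug, medium and time cannot be told apart. The labels do not say whether the 4 replicates were separate cultures or how a replicate number relates across times, so a p-value here weighs an effect against the spread between arrays alone, which may be technical spread. No label sets the 6 arrays apart.

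CLEC2A encodes a C-type lectin-like protein, known from skin as the ligand of the natural killer cell receptor NKp65, and its gene lies among other lectin-like genes of the natural killer gene complex. ZNF562 encodes a KRAB zinc finger protein from a dense cluster of such genes. Human pluripotent stem cells leave self-renewal for a neural fate when BMP and Nodal signalling are blocked, and cultures of one line are known to differ from each other in the activity of single genes and in the readiness of regional neural genes to come on.

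On the 6 chosen arrays the log2 signal of CLEC2A was 7.37 at 0 h, 7.19 at 12 h, 7.47 at 24 h, 7.17 at 36 h, 7.41 at 48 h and 7.56 at 72 h. On the other 18 arrays it had a lowest value of 9.10, a median of 9.87 and a highest of 10.71. The arrays just inside and just outside the threshold were replicate 2 at 72 h, at 7.56, and replicate 1 at 36 h, at 9.10, so no array lay near 8.0. All 6 values were still above background, which was set at 7.10 from olfactory receptor genes. Within a time the low array stood below the mean of its 3 partners by 2.45 on the log2 scale (SD 0.35 over 6 times).

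Of 10217 other genes above background on at least 4 arrays, 6 were above background on all 6 low-CLEC2A arrays and on 0 of the 18 others: ZNF562, CTSF, PUS7L, RBM46, LRRC61 and PHETA2. These 6 genes thus met the filter through the low-CLEC2A arrays alone. No gene was above background on 0 of the 6 and on all 18 others, though GLT6D1 was above it on 0 of the 6 and on 17 of the 18. The loci of the 6 genes lie on different chromosomes, apart from the one that PUS7L shares with CLEC2A. In GRCh38.p14, RefSeq places CLEC2A at chr12:9877742-9932370, ZNF562 at chr19:9641807-9675100, CTSF at chr11:66563464-66568606, PUS7L at chr12:43718992-43758790, RBM46 at chr4:154781272-154828813, LRRC61 at chr7:150309499-150338156 and PHETA2 at chr22:42074248-42079438, all protein-coding genes. The sources used here do not say where in each transcript the bead's probe lies.

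The 250 bases before a start listed in RefSeq's promoter table are shown for CLEC2A and 4 of these genes, because the genes differ together between the array sets. They are from RefSeq, GRCh38.p14, written 5′ to 3′ on the gene's strand, with the dinucleotide CG, which reads the same on both strands, in capitals.
CLEC2A: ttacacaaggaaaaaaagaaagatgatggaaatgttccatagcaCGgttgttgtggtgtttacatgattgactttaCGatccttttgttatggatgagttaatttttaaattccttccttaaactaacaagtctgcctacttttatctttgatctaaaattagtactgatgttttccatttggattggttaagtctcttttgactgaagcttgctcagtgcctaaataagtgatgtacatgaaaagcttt
ZNF562: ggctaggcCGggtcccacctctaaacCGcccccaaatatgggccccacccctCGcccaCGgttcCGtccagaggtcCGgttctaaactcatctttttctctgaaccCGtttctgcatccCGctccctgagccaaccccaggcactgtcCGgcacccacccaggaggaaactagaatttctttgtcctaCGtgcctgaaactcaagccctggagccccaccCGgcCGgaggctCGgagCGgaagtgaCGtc
CTSF: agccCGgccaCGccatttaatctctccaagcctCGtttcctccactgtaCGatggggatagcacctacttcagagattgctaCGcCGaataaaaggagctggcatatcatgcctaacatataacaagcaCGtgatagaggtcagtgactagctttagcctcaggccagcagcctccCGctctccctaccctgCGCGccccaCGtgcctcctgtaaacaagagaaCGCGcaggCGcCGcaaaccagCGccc
RBM46: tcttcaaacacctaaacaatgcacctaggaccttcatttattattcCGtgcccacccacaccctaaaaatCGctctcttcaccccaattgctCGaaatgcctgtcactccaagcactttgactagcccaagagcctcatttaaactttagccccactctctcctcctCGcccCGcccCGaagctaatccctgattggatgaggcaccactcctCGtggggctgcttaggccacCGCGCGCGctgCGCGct
LRRC61: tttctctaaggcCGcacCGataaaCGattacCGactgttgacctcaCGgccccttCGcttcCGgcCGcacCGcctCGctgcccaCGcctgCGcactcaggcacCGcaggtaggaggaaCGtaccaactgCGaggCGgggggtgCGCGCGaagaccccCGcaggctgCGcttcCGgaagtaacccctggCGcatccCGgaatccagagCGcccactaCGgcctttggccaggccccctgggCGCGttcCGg
These are chr12:9932371-9932620 on the minus strand, chr19:9675101-9675350 on the minus strand, chr11:66568607-66568856 on the minus strand, chr4:154781022-154781271 on the plus strand and chr7:150323105-150323354 on the plus strand. The listed start of LRRC61 lies inside the span of the whole gene given above, and RBM46 has a second listed start. The window of CLEC2A holds 2 CG dinucleotides, that of RBM46 13, that of ZNF562 15, that of CTSF 16 and that of LRRC61 29. The window of the second start of RBM46, chr4:154781255-154781504, holds 25. Of 35116 RefSeq promoter windows of this length, 93.9% hold at least 1, with a median of 11. Over 12264 windows of the genes tested here the median is 20. The counts are a description of these letters, and no methylation was measured.

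ZNF562 had log2 signals of 8.78, 8.84, 8.45, 8.40, 8.44 and 8.67 on the low-CLEC2A arrays from 0 to 72 h. On the other 18 arrays it ran from 6.43 to 6.98 with a median of 6.81, all below background. The sets did not overlap, and the mean of the low-CLEC2A arrays was at least 2.82-fold higher than that of the others, taking the background level for the others. CTSF, which encodes the lysosomal protease cathepsin F, had 8.09 as its lowest, 8.30 as its median and 8.60 as its highest value on the low-CLEC2A arrays, against 6.22, 6.51 and 6.67 on the others, at least 2.29-fold. RBM46, an RNA-binding protein gene known for its role in germ cells of the mouse, had 7.78, 8.05 and 8.47 against 6.45, 6.72 and 6.91, at least 1.99-fold. Here too no value of either set lay within the other.

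PUS7L, related to pseudouridine synthases, gave 7.87 to 8.20 on the low-CLEC2A arrays and 6.42 to 6.79 on the others, at least 1.87-fold. LRRC61, a leucine-rich repeat gene, gave 7.60 to 7.98 against 6.62 to 7.07, at least 1.64-fold. PHETA2, a gene of endosomal trafficking, gave 7.11 to 7.39 against 6.41 to 7.04, at least 1.08-fold, so it was only just on the other side of background. For all 6 genes the difference varied over the times by less than its own size. Its SD over the 6 times was 0.13 for ZNF562, 0.23 for CTSF, 0.16 for PUS7L, 0.21 for RBM46, 0.095 for LRRC61 and 0.12 for PHETA2.

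**Figure D1:**
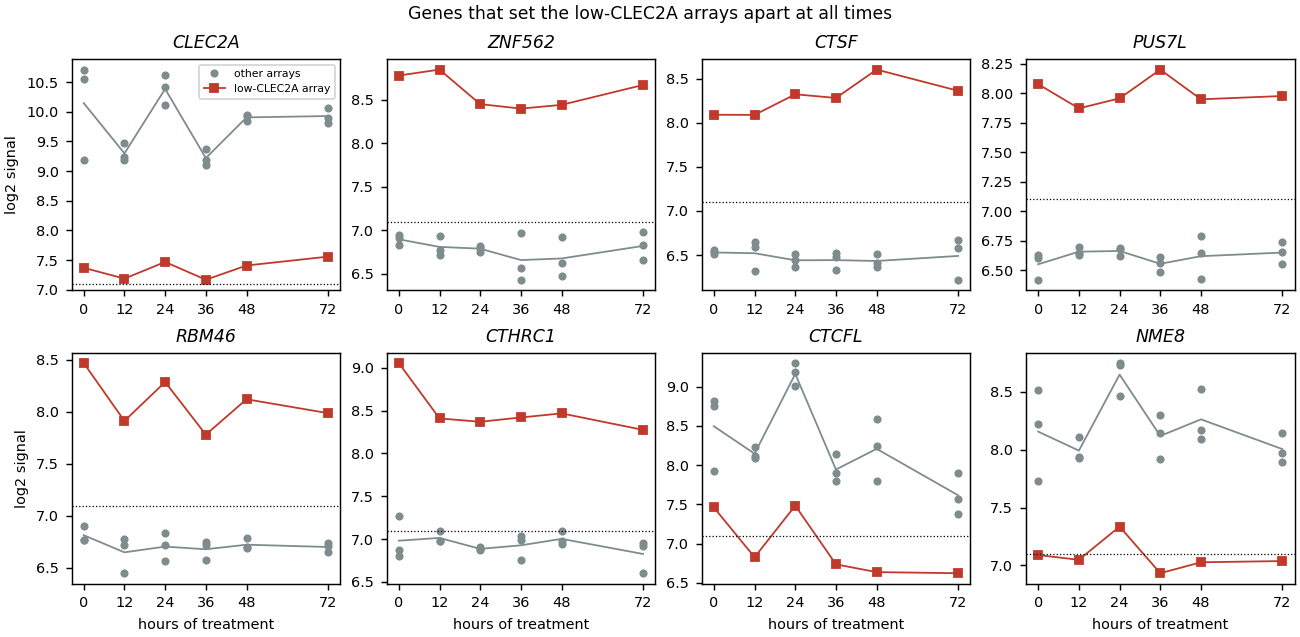
Log2 signal (vertical axes) of 8 genes against hours of treatment. Red squares are the low-CLEC2A array of each time, grey points the 3 other arrays with a line through their mean, and the dotted line is background at 7.10. ZNF562, CTSF, PUS7L, RBM46 and CTHRC1 lie above, and CLEC2A, CTCFL and NME8 below, the 3 others at all 6 times.

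A gene was counted as separated when the low-CLEC2A array lay beyond all 3 other arrays of its time, on the same side, at all 6 times. By that count 237 of 10217 genes, 2.32%, were separated upwards and 145, 1.42%, downwards. All 6 low-CLEC2A arrays lay beyond all 18 others, whatever the time, for 33 genes, 0.323%, of which 19 were above and 14 below. Most differences were small. The median size of the mean difference was 0.36 on the log2 scale over the separated genes against 0.10 over all genes tested, and 315 of the 382 separated genes differed by less than 1.5-fold. Of the separated genes 12 were higher and 3 lower by at least 2-fold. Over all tested genes, separated or not, 13 were higher and 7 lower by that much. The count of 382 asks for all 6 times, so it grew to 627 without the low-CLEC2A array of 0 h and to 598 without that of 12 h, each of which takes its time with it.

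**Figure D2:**
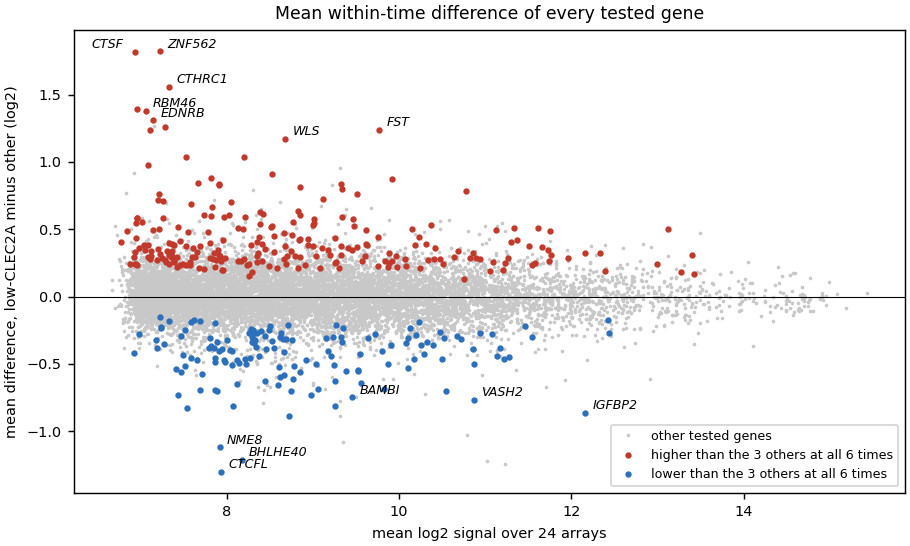
Mean difference of the low-CLEC2A array from the 3 others of its time (vertical axis, log2) against the mean log2 signal over 24 arrays (horizontal axis) for 10217 genes. Red points are the 237 genes above, and blue points the 145 genes below, the 3 others at all 6 times. ZNF562 and CTSF mark the upper end and CTCFL the lower end, all 3 among dim genes.

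The separated genes were spread over the genome and over levels of signal, as the plot of difference against level shows. By chromosome the share separated in either direction ran from 2.38% on chromosome 15 to 5.69% on chromosome 20, and the median difference from -0.013 on chromosome 3 to 0.028 on the X chromosome. Of 2 tested lectin-like or natural killer receptor genes from the list around CLEC2A, 0 were separated, with differences of -0.05 and 0.01, and 15 of the 18 measured were below background on all 24 arrays. Of 10 tested zinc finger genes listed as neighbours of ZNF562, 0 were separated and the median difference was 0.0012. Among the 2555 genes with the lowest mean signal 69 were higher and 20 lower, and among the 2554 with the highest 48 were higher and 31 lower.

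Next by size of difference were CTHRC1, EDNRB, FAM24B, FST, NLRP2, WLS, DLK1 and PCDHB5. CTHRC1, a secreted protein that has been linked to Wnt signalling and matrix, had 8.28, 8.41 and 9.06 as its lowest, median and highest value against 6.60, 6.95 and 7.27, a difference of 1.56 (SD 0.25), with 1 of 18 other arrays above background. FST encodes follistatin, which binds and blocks activins. It stood at 9.77 at 0 h and 12.29 at 72 h on the low-CLEC2A arrays, against 8.20 to 8.33 and 11.73 to 12.21 on the 3 others. The other arrays came close to the low-CLEC2A array by 72 h, and the mean difference was 1.24 (SD 0.52), or 1.05 as the mean of its 2 measurements.

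WLS, which carries Wnt proteins to the cell surface, was 8.39 at 0 h and 12.26 at 72 h on the low-CLEC2A arrays. The 3 others were at 7.44 to 7.69 and at 10.15 to 11.18. The difference was 1.17 (SD 0.40), and the mean of the gene's 2 measurements gave 0.78. At 72 h the low-CLEC2A array still lay above all 3 others. DLK1, a Notch-related surface protein and imprinted gene, was 7.85 at 0 h against 6.38 to 6.50 on the others, where it was below background. By 72 h it had 10.59 against 9.34 to 10.28, and the mean difference was 1.04 (SD 0.35). MEG3, the imprinted non-coding RNA gene from the same locus, was separated upwards too, by 0.24 (SD 0.10), with 2 of 6 low-CLEC2A arrays and 3 of 18 others above background.

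Others of the 15 highest were FAM24B with a difference of 1.26, NLRP2, an NLR-family gene expressed in the early embryo, with 1.24, and the protocadherin PCDHB5 with 1.03. SEZ6, a neuronal membrane protein, differed by 0.91, and MIR124-2HG, a host transcript of the neuronal microRNA miR-124, by 0.88. FAM24B and NLRP2 did not overlap between the sets, at 7.77 to 8.55 against 6.60 to 7.27 and at 7.48 to 8.42 against 6.47 to 7.25. PCDHB5, SEZ6 and MIR124-2HG overlapped once times were pooled, since their levels also differed between times.

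Lower on the low-CLEC2A arrays by the most was CTCFL, the germline paralogue of the insulator protein CTCF. It read 7.46, 6.83, 7.48, 6.74, 6.64 and 6.62 from 0 to 72 h, above background on 2 of the 6. The 18 others had 7.38 as their lowest, 8.13 as their median and 9.30 as their highest value, and the mean difference was -1.30 (SD 0.28). NME8, a thioredoxin-domain gene known from cilia and testis, had 6.93, 7.04 and 7.34 against 7.73, 8.14 and 8.75, with no overlap and a difference of -1.12 (SD 0.15).

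BHLHE40, a basic helix-loop-helix repressor induced by hypoxia, had 6.53, 7.40 and 7.82 on the low-CLEC2A arrays and 7.35, 8.44 and 9.41 on the others, a difference of -1.21 (SD 0.27). IGFBP2, an abundant secreted binding protein of insulin-like growth factors, had 11.22, 11.57 and 11.73 against 11.66, 12.43 and 13.05, a difference of -0.86 (SD 0.20). It was the brightest of the 15 genes with the lowest differences. GLT6D1 was below background on all 6 low-CLEC2A arrays and above it on 17 of 18 others, at 6.77 to 7.06 against 7.10 to 8.40. TNFAIP8L1, at 7.27 to 7.59 against 7.60 to 8.86, did not overlap either.

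The remaining genes among the 15 lowest had differences from -0.81 to -0.70: RDM1, VASH2, BAMBI, CEP85L, CLDND2, ART3, NBPF9 and TCL1B. TCL1B, a relative of the AKT cofactor TCL1A, is known from pluripotent cells and the early embryo. It had 7.73 to 9.17 against 7.96 to 9.84, and its difference was -0.70 (SD 0.19). For RDM1 and NBPF9, which have 2 measurements each, the mean of both gave -0.40 and -0.26. For CEP85L, which has 3, the mean gave -0.49, so the size of these differences depends on the measurement taken. CEP85L was above background on 1 of 6 low-CLEC2A arrays and on 17 of 18 others.

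The lists of genes were compiled with earlier results of these data known, so their counts are descriptive, to be read beside 2.32% and 1.42% separated and a median difference of 0.0036 over all 10217 genes. Of these 10217 genes 5216 had a mean difference above 0 and 5001 one below 0, to be read beside each list's count on 1 side. Genes of a list are not independent of each other. Core markers of pluripotent cells were above background in both array sets at 0 h. POU5F1, a core pluripotency factor, was 12.27 on the low-CLEC2A array of 0 h and 12.31 to 12.48 on the 3 others, and its mean difference over the course was -0.15 (SD 0.20). NANOG, at 9.19 against 8.77 to 8.96 at 0 h, differed by 0.05 (SD 0.29) over the course. SOX2, at 12.49 against 11.76 to 12.08, differed by 0.36 (SD 0.19), or 0.20 as the mean of its 2 measurements, and neither was separated. Of 19 tested pluripotency genes 2 were separated, both higher. They were ZFP42, also known as REX1, by 0.51 (SD 0.13), and SALL4 by 0.49 (SD 0.09). The list's median was 0.002, with 11 genes above 0 and 8 below.

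Neural plate genes were higher on the low-CLEC2A arrays in most cases: 15 of 17 tested had a mean difference above 0 and the median was 0.36. OTX2, a homeobox gene of the forebrain and midbrain, and DLK1 were the 2 that were separated. OTX2 read 10.38 at 0 h against 8.97 to 9.77, and 12.23 at 72 h against 11.51 to 12.06, with a mean difference of 0.79 (SD 0.23). PAX6, the factor known to drive human neuroectoderm, was above background on all 6 low-CLEC2A arrays and on 4 of 18 others.

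For PAX6 the low-CLEC2A array read 7.17 at 0 h, 7.46 at 12 h, 7.16 at 24 h, 7.31 at 36 h and 7.63 at 48 h. The highest of the 3 others at those times was 6.66, 6.73, 6.67, 6.62 and 7.21. At 72 h the low-CLEC2A array, at 10.16, lay inside the range of the others, 9.23 to 10.43, so PAX6 was not separated. SOX21 differed most at 0 h, by 1.10, and by 0.42 in the mean (SD 0.36), and was higher than the mean of the others at 6 of 6 times. ZIC2, with 0.47 (SD 0.15), was also higher at 6 of 6, and the share of all tested genes on 1 side at 6 of 6 times was not counted. SOX3, with -0.37, and SIX3, with -0.07, were the 2 below 0.

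**Figure D3:**
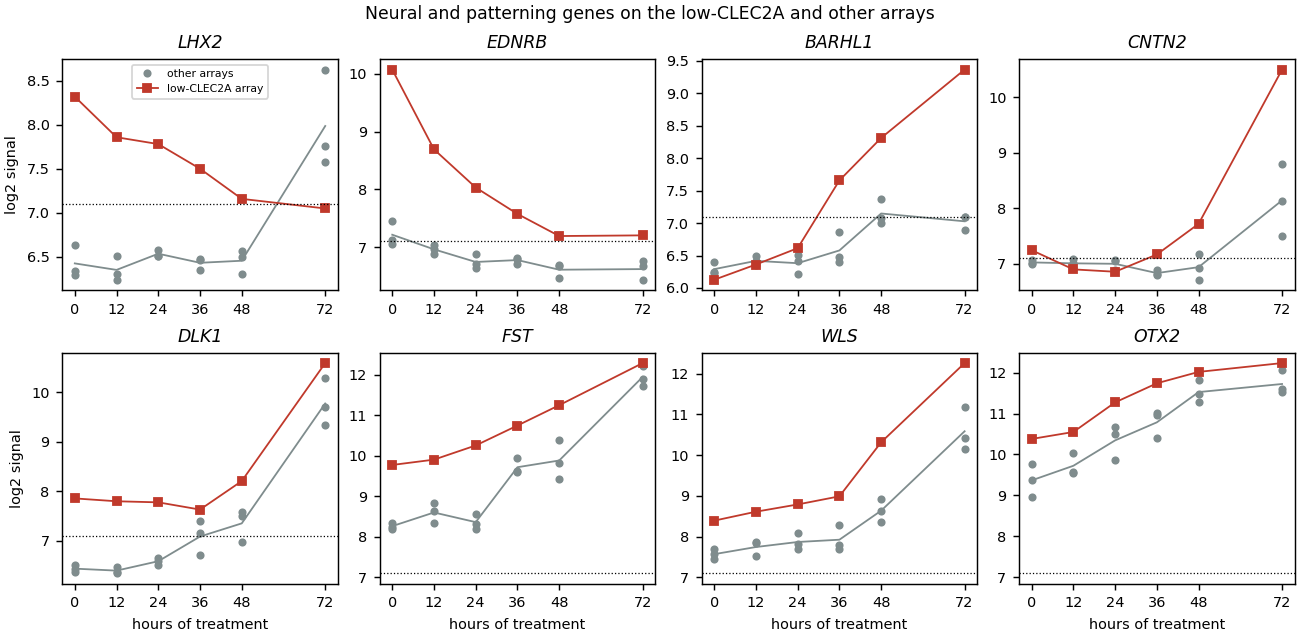
Log2 signal (vertical axes) of 8 neural, patterning and signalling genes against hours of treatment, with symbols and background line as in the plot of marker genes by time. DLK1, FST, WLS, OTX2 and EDNRB are higher on the low-CLEC2A array at all 6 times. The gap narrows for EDNRB, opens for BARHL1 and CNTN2, and turns over at 72 h for LHX2.

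Cells respond to low oxygen through hypoxia-inducible factors, which raise genes of glycolysis among others. Of 14 tested genes of this list, 5 were separated downwards and 0 upwards, 13 had a difference below 0, and the median was -0.46. ANKRD37, a target of hypoxia-inducible factor, did not overlap between the sets, at 7.33, 8.18 and 8.38 against 8.58, 8.92 and 9.67, a difference of -0.89 (SD 0.39). NDRG1 differed by -0.70 (SD 0.44), the angiogenic factor VEGFA by -0.49 (SD 0.12), the glycolytic enzyme gene ALDOC by -0.44 (SD 0.10) and the collagen hydroxylase P4HA1 by -0.54 (SD 0.20). Its second measurement brought the mean for P4HA1 to -0.21. ADM, with -1.24, the glucose transporter SLC2A1, with -0.67, and BNIP3, with -0.62, were lower as well without being separated. HK2, with -0.09, and ENO2, with -0.24, were nearer to 0, and EGLN3, with 0.15, was above it. Oxygen and cell density are not given for single arrays, and their part in the result was not tested.

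Immediate early genes had a median difference of -0.39, with 11 of 12 below 0 and 0 separated. EGR1 differed by -1.08 with a wide spread (SD 0.84), CCN2 by -0.72 (SD 0.76) and ATF3 by -0.47 (SD 0.33). Targets of FGF and ERK signalling, a list that also holds EGR1, had a median of -0.19, with 9 of 10 below 0 and 0 separated. In the list of BMP and Nodal targets 1 of 5 was separated: BAMBI, a pseudoreceptor that dampens BMP signals, with a difference of -0.75 (SD 0.32). Sterol synthesis genes were on the other side. All 11 had a difference above 0 and 0 were separated, with a median of 0.27, SQLE at 0.34 (SD 0.16) and SCD at 0.30 (SD 0.16).

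Of 13 genes of the G2 and M phases 11 were below 0 with a median of -0.094, CDC20 at -0.24 (SD 0.09), and 0 were separated. Of 13 S phase genes 1 was separated, TYMS, thymidylate synthase, at 0.41 (SD 0.15). IFI6, an interferon-inducible gene, was separated by 0.87 (SD 0.19), or 0.69 as the mean of its 2 measurements. The other 8 tested genes of the interferon list were not separated, and ISG15 had -0.20. ACTA2, smooth muscle actin, was separated by 0.76 (SD 0.34), whereas the contractile gene TAGLN had -0.61 and COL1A1 -0.58, neither separated. Metallothioneins were spread widely, from -1.22 for MT1X to 1.27 for MT1M, with 4 above and 4 below 0.

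**Figure D4:**
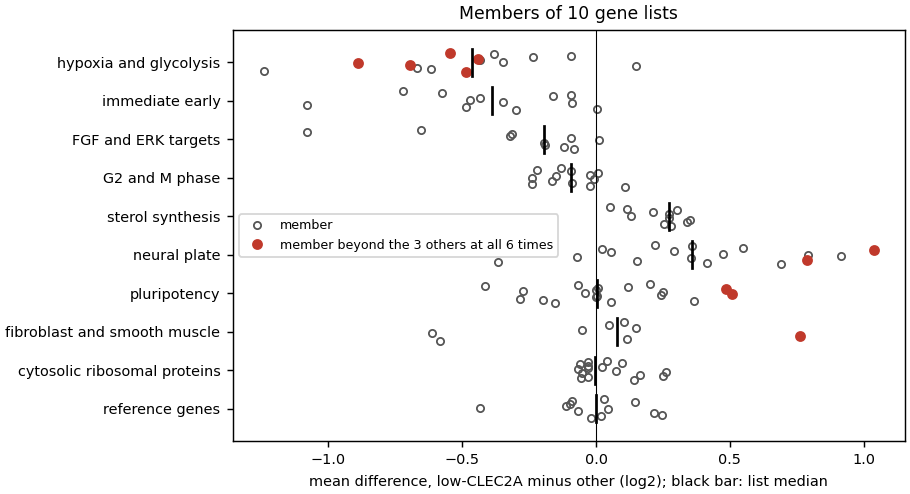
Mean difference of each tested member of 10 gene lists between the low-CLEC2A array and the 3 others of its time (horizontal axis, log2). Filled red points are separated at all 6 times, open points are not, and the black bar is the list's median. The 5 filled points of the hypoxia and glycolysis list lie below 0, and those of the neural plate and pluripotency lists above 0.

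Apart from ACTA2 and MEG3, given above, the lists of other cell types, RNA classes and abundant transcripts held 0 separated genes. Cytosolic ribosomal protein genes had a median difference of -0.003 over 16 genes, and reference genes one of 0.0008 over 12, 0 separated in either. GAPDH differed by -0.02 (SD 0.21) and ACTB by 0.02 (SD 0.03). Of 9 histone and 6 small RNA genes tested, 0 were separated. No member was separated among 1 tested mesoderm, 3 endoderm, 3 trophoblast, 1 keratinocyte, 2 blood, 5 neural crest and 7 neuronal genes. Below background on all 24 arrays were 7 of 10 measured mesoderm markers, TBXT and EOMES among them, 8 of 11 trophoblast and amnion markers, CGA and GATA3 among them, 9 of 10 keratinocyte markers, KRT5 and KRT14 among them, and 5 of 9 endoderm markers, SOX17 and FOXA2 among them. The log2 of the summed signal of the trophoblast list, in which bright members weigh most, ran from 10.5 to 11.9 on the low-CLEC2A arrays. It ran from 10.4 to 11.3 on the others. The list's member IGFBP3 had a mean difference of 0.83 (SD 0.79). In RNA from whole cultures, fewer cells of a type and less RNA per cell cannot be told apart.

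The number of genes above background was 9340 to 9476 on the low-CLEC2A arrays and 9254 to 9454 on the others. Replicates 1 and 2 differed slightly from replicates 3 and 4 in the lower quartile of the deposited values, 6.525 to 6.530 against 6.514 to 6.520, and the 6 arrays fell in both: 3 in the first and 3 in the second. Compared only with the 1 other array of the same time and pair of replicates, the named genes kept the direction of their difference, apart from GAPDH and FARSA, whose differences were within 0.05 of 0.

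The 6 arrays resembled each other across times. After the mean of each time was taken out, Pearson's r over the tested genes between 2 low-CLEC2A arrays ran from 0.25 to 0.58 over 15 pairs, with a median of 0.43. Between a low-CLEC2A array and another array of a different time the median was -0.19 over 90 pairs, from -0.46 to 0.18, and between 2 other arrays it was 0.062 over 135 pairs, from -0.38 to 0.53. The array most like each of the 6 was another of the 6, and the array most like each of the 18 was another of the 18. Arrays of a time share that time's mean, which pushes r between different kinds of array below 0. Low-CLEC2A arrays were the fewer at each time, so the mean lay nearer the others. A difference shared by the 6 thus stayed larger on them than on the 18, which raises r among the 6 more. The medians, and which array was most like which, therefore do not show that the 6 are more alike than the 18. Genes are also not independent of each other, so r is a description.

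The likeness crossed replicate numbers. Between low-CLEC2A arrays of which 1 was replicate 2 and the other replicate 4 the median r was 0.42 over 9 pairs, and between those of the same number it was 0.46 over 6 pairs. Among the 18 others the median was 0.22 within replicates 1 and 2 or within 3 and 4, and -0.032 across them. Time took up 62.5% of the variation over the tested genes. The array set took up 8.65%, which is 23.1% of what remained within times, on 1 degree of freedom. Replicate number took up 24.5% of that remainder on 3 degrees of freedom, and the pair of replicates 10.4% on 1.

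**Figure D5:**
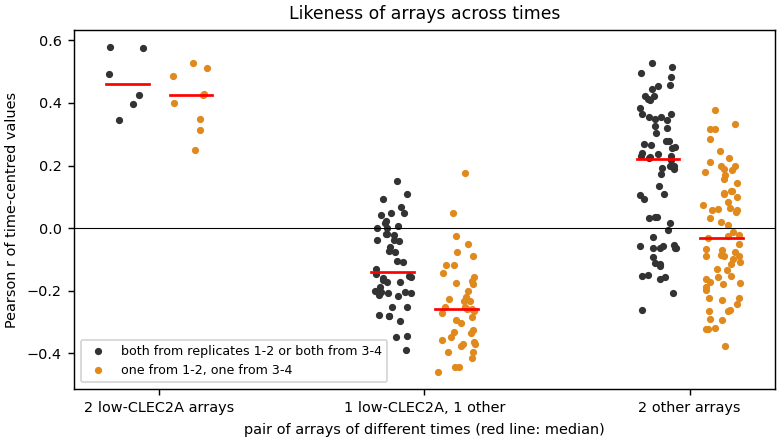
Pearson's r of time-centred log2 values over the tested genes (vertical axis) for each pair of arrays of different times, grouped by kind of pair (horizontal axis). Colours show whether both arrays are from replicates 1 and 2 or 3 and 4, or 1 from each, and red lines are medians. All 15 pairs of low-CLEC2A arrays lie at 0.25 or higher.

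CLEC2A also varied among the 18 other arrays, from 9.10 to 10.71, and at 0 h it was 9.18 on replicate 3 against 10.55 and 10.71 on replicates 1 and 4. Over these 18 arrays, with times centred, the genes most like it were GDF15, a stress-induced secreted factor, with r of 0.94, SDHAF4, an assembly factor of succinate dehydrogenase, with 0.93, and TYMSOS, a transcript opposite TYMS, with 0.92. The most unlike were SNORD35B, a small nucleolar RNA, with -0.95, ADAT3, a tRNA editing enzyme gene, with -0.92, and FARSA, a tRNA synthetase subunit, with -0.92. Without the 3 arrays of 0 h these were 0.76, 0.82, 0.92, -0.71, -0.62 and -0.59 over 15 arrays. None of the 6 genes was separated between the array sets: GDF15 differed by -0.52 (SD 0.45), and the other 5 by -0.11 to 0.20. Some separated genes also followed CLEC2A over the 18 arrays. Among the 15 lowest genes r ran from -0.24 for VASH2 to 0.87 for GLT6D1, and that of GLT6D1 was 0.64 without the arrays of 0 h. Among those of the 15 highest with any of the 18 arrays above background, r ran from -0.51 for FAM24B to 0.55 for NLRP2. NLRP2 was above background on 1 of the 18. Both signs of r thus occurred among the higher and among the lower genes. The 6 genes that were above background only on the low-CLEC2A arrays give no such measure, since all their values on the 18 arrays are background signal.

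How the 6 arrays bear on the course of treatment was examined with limma's moderated fit and Benjamini-Hochberg adjustment over 10218 genes. With a mean for each time and a term for the array set, 4090 genes, 40.0%, passed an adjusted p of 0.05 between 72 h and 0 h, 2113 up and 1977 down. Without the term 3665 passed, every one of them among the 4090, so 425 were called only with it and 0 only without it. The 18 other arrays alone gave 3272. Over all 6 times by the moderated F test 5702 genes, 55.8%, passed with the term, 4994 without it and 4542 on the 18 arrays. The term was chosen from these values, so the larger count with it is a description. The median residual SD was 0.152 with the term and 0.162 without it.

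The counts at earlier times also differed between the fits. At 12 h against 0 h 914 genes passed with the term, 621 without it and 449 on the 18 arrays, and at 24 h 1028, 737 and 747 did. The genes with the largest change among those called only with the term were MT1E, EDNRB and EGR1. MT1E, a metallothionein, fell by 1.30 (SE 0.51, adjusted p = 0.0443 in limma's fit) with the term, against SE 0.53 and adjusted p = 0.0555 without it and 0.116 on the 18 arrays. EGR1, an immediate early gene, fell by 1.16 (SE 0.38, adjusted p = 0.0176 in the same fit), against adjusted p = 0.0755 without the term. On the 18 arrays alone EGR1 passed, with adjusted p = 0.0184.

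Of the genes described above, ZNF562 had a change of -0.08 from 0 to 72 h (SE 0.11, adjusted p = 0.576 in limma's fit with the term), whereas several others passed the test with all arrays and on the 18. OTX2 rose by 2.23 (SE 0.19, adjusted p = 3.37e-10) with all arrays and by 2.36 on the 18 others, DLK1 by 3.19 and 3.34, FST by 3.39 and 3.68, WLS by 3.23 and 3.02, and PAX6 by 3.12 and 3.17. The comparisons share the 18 arrays, so their likeness is no separate evidence.

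Whether the difference between the sets moved along the course was tested with the product of array set and hours in limma's fit, a slope on which the arrays were not chosen. With 1 low-CLEC2A array at each time the slope rests on single arrays. Of 10217 genes 15, 0.147%, passed an adjusted p of 0.05, 3 with a difference that increased with time and 12 with one that decreased, and 704 had an unadjusted p under 0.05. The smallest p was that of BARHL1 among the 3 and that of LHX2 among the 12. The count was 6 without the low-CLEC2A array of 72 h, 8 without that of 0 h, 32 without replicate 1 of 72 h and 9 without replicate 3 of 72 h.

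Some of these genes entered the tests only through the low-CLEC2A arrays, since the filter asks for 4 arrays above background. Above background were 3 of the 6 and 1 of the 18 others for BARHL1, 4 and 1 for ABHD12B, 6 and 2 for EDNRB, 5 and 3 for LHX2, and 4 and 4 for CNTN2. The 18 others alone would have admitted CNTN2, but not BARHL1, ABHD12B, EDNRB or LHX2. The adjusted p-values for the slopes of those genes, and for EDNRB between 72 h and 0 h, are therefore given as a description. With at least 20 arrays above background required, 6 genes passed. LHX4, VAT1L and COL1A2 were among them, and the 5 genes with the counts above did not enter.

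BARHL1, a homeobox gene of the diencephalon and hindbrain, was below background on every array up to 24 h. From 36 to 72 h the low-CLEC2A array read 7.66, 8.31 and 9.37, while the highest of the 3 others read 6.86, 7.37 and 7.10. The difference increased by 0.86 per 24 h (SE 0.08, adjusted p = 2.24e-07), and still passed without the low-CLEC2A array of 72 h, at adjusted p = 0.0023. The genes were not filtered again for that fit. Without that array BARHL1 would have fallen short of the 4 arrays above background that the filter asks for. CNTN2, a cell adhesion gene of early axons, was 10.50 at 72 h against 7.50 to 8.80. Its slope was 0.75 (SE 0.14, adjusted p = 0.0128), and 0.31 without that array, with adjusted p = 0.886. VAT1L, known as a marker of certain neurons, had 10.81 at 72 h against 8.74 to 9.44 and a slope of 0.55 (SE 0.10, adjusted p = 0.0117), which stayed at 0.55 without that array (adjusted p = 0.381) and was 0.61 without the low-CLEC2A array of 0 h (adjusted p = 0.0508).

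EDNRB, the endothelin receptor known from neural crest and its derivatives, was 10.07 on the low-CLEC2A array of 0 h against 7.05 to 7.46. The low-CLEC2A arrays then read 8.69 at 12 h, 8.03 at 24 h, 7.57 at 36 h, 7.19 at 48 h and 7.20 at 72 h, all above the 3 others of their time, of which the highest was 7.04 after 0 h. The difference decreased by 0.72 per 24 h (slope -0.72, SE 0.10, adjusted p = 0.000442), and was -1.10 without the low-CLEC2A array of 72 h (adjusted p = 1.67e-05) and -0.46 without that of 0 h (adjusted p = 0.0508). Between 72 h and 0 h EDNRB fell by 1.16 (SE 0.25, adjusted p = 0.000599) with the array-set term, against adjusted p = 0.0536 without it, and by 0.60 on the 18 others. EDNRB has 3 measurements, and all its values here are from the one with the highest mean. With the mean of the 3 in its place EDNRB was too dim to enter, so its difference, slope and 72 h change rest on that measurement alone. ABHD12B, a gene of the serine hydrolase family, also came nearer to the others, with 8.38 at 0 h against 6.78 to 7.09 and 6.84 at 72 h against 6.70 to 6.81. Unlike EDNRB, ABHD12B was below the mean of the 3 others at 48 h, with a difference of -0.11. Its slope was -0.50 (SE 0.09, adjusted p = 0.00884), and -0.40 without the low-CLEC2A array of 0 h, with adjusted p = 0.163.

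LHX2, a LIM homeobox gene of forebrain and eye field, read 8.32, 7.86, 7.78, 7.50, 7.16 and 7.05 on the low-CLEC2A arrays from 0 to 72 h. On the others it was between 6.24 and 6.64 up to 48 h, below background, and 7.57, 7.76 and 8.63 at 72 h. The low-CLEC2A array was thus the highest of its time up to 48 h and the lowest at 72 h. The slope was -0.88 (SE 0.11, adjusted p = 1e-04), and -0.57 without the low-CLEC2A array of 72 h, with adjusted p = 0.342. On the 18 other arrays LHX2 rose by 1.56 from 0 to 72 h (SE 0.18, adjusted p = 9.51e-07). LHX4, a LIM homeobox gene known from pituitary and motor neurons, was 7.82 at 0 h against 6.67 to 6.77 and 7.18 at 72 h against 7.57 to 8.24. Its slope was -0.70 (SE 0.11, adjusted p = 0.00252), and -0.75 without that array, with adjusted p = 0.203.

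COL1A2, a fibrillar collagen chain, was 10.41 at 0 h against 9.67 to 9.89 and 9.41 at 72 h, below all 3 others, whose middle value was 10.09, a slope of -0.41 (SE 0.06, adjusted p = 0.00163) that was -0.34 without the low-CLEC2A array of 72 h, with adjusted p = 0.382. The other 7 genes past the threshold, all with negative slopes, were MAL2, LRAT, SHTN1, SIX3, MYB, MARVELD3 and TC2N, given here in order of p. SIX3, an anterior forebrain gene, had a slope of -0.75 (SE 0.15, adjusted p = 0.0344). The calls of LHX2, LHX4, CNTN2, VAT1L and COL1A2 were lost without the low-CLEC2A array of 72 h, and those of EDNRB, ABHD12B and VAT1L without that of 0 h. The slopes of LHX4 and VAT1L were kept or larger in those fits, and the other lost slopes were smaller, that of CNTN2 by the most. BARHL1 was the only one of the 8 genes described by value that passed without either, but it met the filter only through the low-CLEC2A arrays, as did EDNRB, ABHD12B and LHX2.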

How the data were processed

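Per the labels, 24 Illumina HumanHT-12 v4 BeadArrays were hybridised with total RNA of H1 cells. The authors deposited log2 values for 37900 rows, between 5.57 and 15.51, which were used as given. The sources used here do not state how they were background-corrected, normalized or filtered, and the columns have nearly the same quantiles. A second deposited table was not used, because its 48 columns match no sample label. No count of reads or depth exists for arrays, and their number limits the precision. Identical rows, 10159 in 4746 sets, were counted once. Genes were named from the platform annotation through RefSeq identifiers, and a gene's measurement with the highest mean was taken. A gene entered the tests if at least 4 arrays put it above background, which held for 10218 of 17760 named genes. Background was 7.10, the 99th percentile of 385 olfactory receptor measurements, whose median was 6.41.

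Arrays were grouped by the labels' times and by the threshold of 8.0 on CLEC2A. Each low-CLEC2A array was compared with the mean of the other 3 arrays of its time, and the mean, SD and range over 6 times are given. "At least" a fold is the mean of the low-CLEC2A arrays over the background level. Time and interaction models were fitted in R 4.3.3 with limma 3.58.1 (lmFit, then eBayes), with residual degrees of freedom of 17 with the array-set term, 18 without it and 12 on the other arrays. Two-sided p-values were adjusted by Benjamini-Hochberg over all genes tested at 0.05. The scripts were tested on simulated data.

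Named genes were the 15 highest and 15 lowest mean differences among separated genes, up to 3 separated members of each gene list described, the 3 most and 3 least like CLEC2A over the 18 arrays, the 3 largest 72 h changes called only with the array-set term, up to 5 interaction genes in each direction, and CLEC2A, ZNF562, POU5F1, NANOG, SOX2, SOX21, PAX6, GAPDH and ACTB. PHETA2, LRRC61 and other list members were named beside their counts after their values were seen. The array set, the 34 gene lists with 478 genes and the rules were chosen with earlier results of these data known. Same-numbered replicates were checked for shared deviations. Over 60 pairs of different times, with pairs of a low-CLEC2A and another array included, r ran from -0.35 to 0.58, so the numbers were not used to pair arrays. Replicate 1, which holds no low-CLEC2A array, was more alike across times. Its pairs had r from 0.14 to 0.44, and each of its arrays was most like another of replicate 1.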

Additional observations from a re-analysis of the deposited data

Results flagged for a closer look

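In 4 of 61 named genes checked, the difference at 1 of the 6 times lay far from those at the other 5 by Dixon's criterion, which chance alone meets in about 1 of 20 groups. CTHRC1 differed by 2.07 at 0 h and by less than that at every other time. SOX21 differed by 1.10 at 0 h. TCL1B differed by -1.07 at 24 h, and CNTN2 by 2.36 at 72 h.

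For 8 named genes the difference between the array sets moved with time past the threshold in limma's interaction test. Per 24 h, the slope was 0.86 for BARHL1, 0.75 for CNTN2 and 0.55 for VAT1L, with a difference that grew. It was -0.88 for LHX2, -0.72 for EDNRB, -0.70 for LHX4, -0.50 for ABHD12B and -0.41 for COL1A2. LHX2, LHX4 and COL1A2 had higher values on the low-CLEC2A array at 0 h and lower ones at 72 h than all 3 others, while EDNRB was higher throughout.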

How the results depend on the processing

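The size of the separated set depends on how strictly it is defined, and the cause of each shift below is in the construction of the setting or was not tested. Where the low-CLEC2A array had to lie beyond only 2 of the 3 others, 2147 genes were separated in place of 382. With only 0, 24 and 72 h 1385 were, and with only 12, 36 and 48 h 1487. Against the 1 other array of the same pair of replicates, a setting chosen after seeing the data, 2088 were. Leaving out 1 array at a time gave 394 to 627. For differences of at least 2-fold, 15 genes, leaving out 1 array gave 15 to 19, and a filter on 20 arrays above background gave 5. With arrays centred on their median 215 genes were higher and 170 lower, against 237 and 145.

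Replicate numbers do not pair the arrays by the labels, and 14 of 24 arrays were most like an array of their own number. With the replicate number as a block, its fitted effects taken out of the values, 753 genes were separated at all 6 times in place of 382. Of these 23 differed by at least 2-fold. The block gave 4353 genes for 72 h against 0 h, 6120 over all times and 24 for the interaction.

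The interaction count of 15 was 6 with the filter on 20 arrays, 8 with the order of times in place of hours and 6 to 32 leaving out 1 array. With the order of times CNTN2 had adjusted p = 0.0697. Leaving out 1 array gave 3517 to 4128 genes for 72 h against 0 h and 5140 to 5886 over all times. No separated gene named here changed its direction, while the differences of FARSA, GAPDH, NANOG and ACTB, all close to 0, changed sign in some settings. Of 2110 recomputed differences of named genes, 2106 moved by less than 1 SD over the times, and the other 4 were those of RDM1 (-0.40), NBPF9 (-0.26) and P4HA1 (-0.21) averaged over their measurements, and of SDHAF4 (-0.19) within pairs of replicates.

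Each gene was read from 1 probe or averaged value, and many separated genes are dim. With 1 low-CLEC2A array at each time, the set has no replicate within a time. Whether the 6 arrays share a culture, passage, slide or day is not given in the labels and was not tested.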

Other observations

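Some genes outside the main groups lay on 1 side of the mean of the others at 6 of 6 times without being separated. They were picked after their values were seen, and the share of all tested genes that did so was not counted. SDHAF4, which differed by only -0.11, did so too. VLDLR, a lipoprotein receptor gene, had a mean difference of -0.89 (SD 0.41) and was lower at 6 of 6 times, and XBP1, a factor of the unfolded protein response, had one of 0.31 (SD 0.11) and was higher at 6 of 6. B2M, the invariant chain of class I antigen presentation, had 0.25 (SD 0.12), higher at 6 of 6 times, while ISG15 was lower at 6 of 6. PHLDA1, with -0.66 (SD 0.32), and COL1A1, with -0.58 (SD 0.32), were lower at 6 of 6. STMN2, a gene of young neurons, was lower at 6 of 6 times as well, by -0.64 (SD 0.35). PRDM14, a repressor active in pluripotent cells, had -0.42 (SD 0.31) and was lower at 6 of 6, whereas ZFP42 and SALL4 were higher.

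Metallothionein genes differed between the array sets in ways that changed from time to time. MT1M and MT1F were higher at 6 of 6 times, by 1.27 (SD 1.17) and 0.96 (SD 0.76) in the mean. MT1X was lower at 5 of 6, at -1.22 (SD 1.31), and MT1G ranged from -1.82 to 1.75. These genes are close copies of each other, so probes may share signal between them.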
